A study of Mus musculus with 10 samples.

Results

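Chemokines that draw monocytes into tissue, and a pair of their receptors, were measured in 10 melanoma tumours of male mice, 5 labelled Exercise and 5 labelled non-Exercise. The members are the ligands Ccl2, Ccl3, Ccl4, Ccl6, Ccl7, Ccl8, Ccl9 and Ccl12 and the receptors Ccr1 and Ccr2, chosen by gene symbol, 10 of 19938 genes on whole-transcriptome arrays. Each member had 1 probe set paired with that symbol alone. The series title calls the exercise voluntary and ties it to tumour growth and the entry of natural killer cells. The labels used here name no strain, age, melanoma line, exercise length, genetic change or drug for either group, and do not say whether a title number marks a single animal.

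CC chemokines are small secreted proteins that bind G protein-coupled receptors and steer leukocytes along their gradient. CCR2 carries inflammatory monocytes out of the bone marrow and into inflamed tissue and tumours, where many become macrophages, and its main ligands in mice are CCL2, CCL7 and CCL12. CCR1, found on monocytes, macrophages and neutrophils, binds CCL3, CCL6, CCL7 and CCL9. The arrays measure transcripts of the whole tumour and neither secreted protein nor cell migration.

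The ligand genes lie in clusters of tandem copies. In the mouse RefSeq annotation Ccl2, Ccl7, Ccl12 and Ccl8 follow each other on chromosome 11, with Ccl9, Ccl6, Ccl3 and Ccl4 in a further cluster of the same chromosome, and Ccr1 and Ccr2 lie near each other on chromosome 9. The annotated bounds of Ccl3 and Ccl4 overlap. Whether probes of these related genes take up each other's transcripts was not tested.

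Promoter sequence is shown for 6 members, of which 5 were higher in exercise, to set neighbouring genes beside each other before their values. RefSeq's promoter table (build GRCm38.p6) held a window for 7 of the 10 members (Ccl3, Ccl6, Ccl8, Ccl9, Ccl12, Ccr1 and Ccr2). Each stretch is the 100 bases before the annotated transcript start, written 5′ to 3′ on the gene's strand. Capitals mark the TATA box letters TATAAA on that strand and matches to the NF-kB motif on either strand.
Ccl12, chr11:82101745-82101844, plus strand: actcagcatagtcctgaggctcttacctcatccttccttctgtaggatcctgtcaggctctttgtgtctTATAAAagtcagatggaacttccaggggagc
Ccl8, chr11:82115085-82115184, plus strand: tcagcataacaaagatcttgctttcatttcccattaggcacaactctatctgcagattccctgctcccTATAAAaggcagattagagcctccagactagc
Ccl9, chr11:83578637-83578736, minus strand: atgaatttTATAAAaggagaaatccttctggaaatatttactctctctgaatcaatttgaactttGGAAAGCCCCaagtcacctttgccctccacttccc
Ccl6, chr11:83593088-83593187, minus strand: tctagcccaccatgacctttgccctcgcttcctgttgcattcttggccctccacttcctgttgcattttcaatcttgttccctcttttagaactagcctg
Ccl3, chr11:83649379-83649478, minus strand: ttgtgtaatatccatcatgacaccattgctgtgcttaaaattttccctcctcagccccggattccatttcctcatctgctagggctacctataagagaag
Ccr1, chr9:123968693-123968792, minus strand: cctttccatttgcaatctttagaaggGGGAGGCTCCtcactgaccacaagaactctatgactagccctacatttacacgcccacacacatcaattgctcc

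The neighbours Ccl12 and Ccl8 each held TATAAA on their own strand, beginning 31 and 32 bases before the start, and Ccl9 held it 92 bases before the start. Of 32851 windows of the 250 bases before a start, 12.4% held TATAAA on either strand. The NF-kB motif was found in Ccl9 and Ccr1, 35 and 74 bases before the start, against 7.25% of all such windows. The AP-1 letters TGANTCA, read on both strands, were found in Ccl9, 53 bases before the start, against 6.75% of windows. GAGGAA, the core of sites of the myeloid factor PU.1, was found in Ccl3, Ccl8, Ccl12 and Ccr1 against 23.3% of windows, and neither TTCNNNGAA, bound by STAT factors, nor the interferon-stimulated response element was found in the 7 members (7.02% and 2.98% of windows). These matches describe the letters only.

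Exercise tumours held more transcript of 8 of the 10 members and less of 0 (limma, adjusted p under 0.05), where 17% of all genes were called, 6.35% as higher and 10.6% as lower. The 8 were Ccl2, Ccl7, Ccl12, Ccl3, Ccl4, Ccl6, Ccl9 and Ccr1, while Ccl8 and Ccr2 did not pass. The median log2 change of the members, exercise minus non-exercise, was 1.01, against -0.02 over all genes, and 5 members changed by more than 1 on the log2 scale, as did 0.752% of all genes. For 4 members, Ccl2, Ccl7, Ccl3 and Ccr1, the lowest of 5 exercise arrays exceeded the highest of 5 non-exercise arrays, which held for 3.74% of all genes. The reverse held for 0 members and 8.33% of all genes. In whole-tumour RNA, more cells of a type and more RNA per cell cannot be told apart. With any 1 array left out the number called was 6, except for 7 without exercise array 306 and 10 without exercise array 301.

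**Figure D1:**
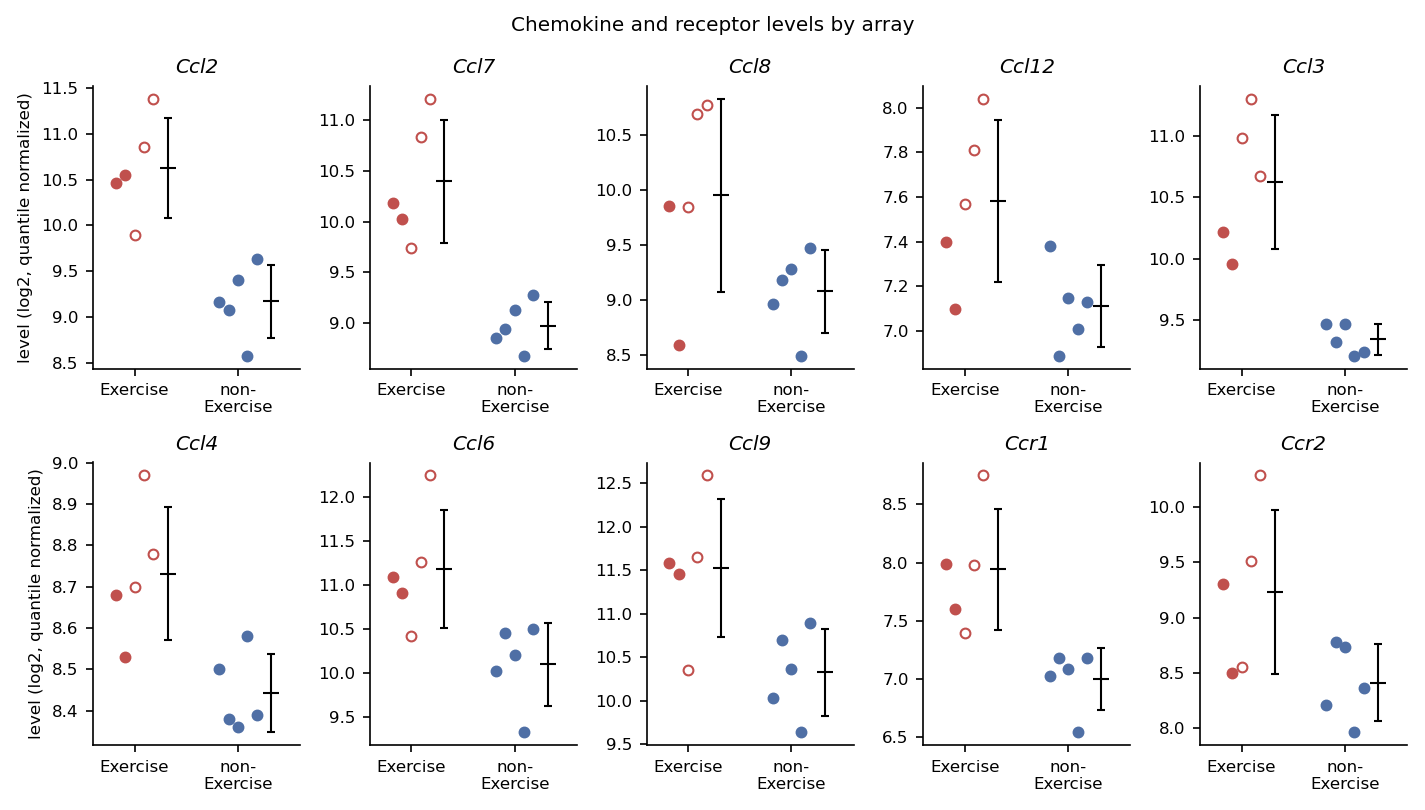
Levels of the 10 members by array (log2, quantile normalized; each panel has its own axis), with exercise arrays in red and non-exercise arrays in blue. Open circles are exercise arrays 306, 309 and 310, and bars are the mean ± SD of 5 arrays. The groups do not overlap for Ccl2, Ccl7, Ccl3 and Ccr1.

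Exercise arrays 306, 309 and 310 stand apart from the other 7 in hepatocyte transcripts. The mean centred level of 13 hepatocyte genes was 1.71, 1.72 and 1.06 in these arrays, -0.76 and -0.73 in exercise arrays 300 and 301, and between -0.73 and -0.35 in the non-exercise arrays. Alb, which encodes albumin, ranged from 7.05 to 12.97 in exercise arrays and from 6.84 to 9.22 in non-exercise arrays. The tumour label was met: the pigment cell genes Dct, Tyrp1 and Pmel lay between 13.34 and 13.69 in exercise arrays and between 13.27 and 13.65 in non-exercise arrays, and 0 of 7 melanocytic genes passed the limma test (2 had an unadjusted p under 0.05). With exercise arrays 300 and 301 alone against the 5 non-exercise arrays, 6 members were called higher (3.74% of all genes), namely Ccl2, Ccl7, Ccl3, Ccl6, Ccl9 and Ccr1. In that comparison 1 melanocytic gene was lower, Sox10 at -0.22 (limma adjusted p = 0.0264, named after its value was seen). Markers of other tissues also differed between arrays, with arrays 300 and 301 included. The mean centred level of 6 skeletal muscle genes was 0.75, -1.29, 1.16, 1.66 and -1.31 in exercise arrays 300, 301, 306, 309 and 310 and -0.70 to 0.33 in non-exercise arrays. That of 7 adipocyte genes was 0.70, -0.77, -0.25, 0.39 and 1.43 in the same exercise arrays. It was -0.65, 0.11, 0.43, -0.79 and -0.59 in non-exercise arrays 326, 327, 329, 330 and 331. Array 310 was highest and array 330 lowest, as for 8 members each and for the inflammatory monocyte genes (1.03 and -0.79). Alas2, the 1 measured erythroid gene of 7 listed, was at -1.63 to -0.87 from its mean in 4 exercise arrays, at 1.54 in array 301 and at 0.23 to 1.56 in non-exercise arrays. The part of these tissues and of hepatocyte RNA in the members' levels was not tested.

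Ccl2, the ligand that gives CCR2 its main monocyte signal, had levels of 10.46, 10.55, 9.90, 10.86 and 11.38 in exercise arrays 300, 301, 306, 309 and 310. The non-exercise arrays 326, 327, 329, 330 and 331 were at 9.16, 9.08, 9.41, 8.58 and 9.63. Exercise array 310 was the highest and non-exercise array 330 the lowest, and the groups did not overlap. The group means were 10.63 ± 0.54 and 9.17 ± 0.40 (SD, n = 5 each), a log2 change of 1.46 ± 0.23 (SE; limma adjusted p = 0.00101). The fold was 2.75 (95% interval 1.95 to 3.89), and the rise ranked 21 among 19938 genes. Without arrays 306, 309 and 310 the change was 1.33 ± 0.20 (limma adjusted p = 0.00167; 0.000246 to 0.0122 over 21 other settings).

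Ccl7, a ligand of CCR2 that also binds CCR1 and lies next to Ccl2, had levels of 10.18, 10.03, 9.74, 10.83 and 11.21 in the exercise arrays, in the same array order. Its non-exercise levels were 8.85, 8.94, 9.13, 8.68 and 9.28. The groups did not overlap, and array 306 was again the lowest exercise array and array 330 the lowest of all. Ccl7 rose by 1.42 ± 0.22 on the log2 scale (SE; limma adjusted p = 0.000944), from 8.98 ± 0.23 to 10.40 ± 0.60 (SD, n = 5 each). The fold was 2.68 (95% interval 1.92 to 3.74). In arrays 300 and 301 alone, against the same 5 non-exercise arrays, the change was 1.13 (limma adjusted p = 0.000631), and over 21 settings the adjusted p lay between 0.000237 and 0.0112.

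Ccl12, a CCR2 ligand found in mice, was at 7.40, 7.10, 7.57, 7.81 and 8.04 in exercise arrays and at 7.38, 6.89, 7.15, 7.01 and 7.13 in non-exercise arrays. The groups overlapped, since exercise array 301 lay below 3 non-exercise arrays. Ccl12 rose by 0.47 ± 0.15 on the log2 scale (SE; limma adjusted p = 0.0490), close to the threshold, and passed in 6 of 19 other settings. Dropping a single array ended the call for exercise arrays 300, 306, 309 and 310 and for non-exercise arrays 327, 329, 330 and 331, with an adjusted p of 0.00730 to 0.119 over the 10 drops. In arrays 300 and 301 alone the change was 0.13 (limma adjusted p = 0.609).

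Ccl8, which in mice signals through CCR8, had exercise levels of 9.85, 8.59, 9.84, 10.69 and 10.77 and non-exercise levels of 8.96, 9.18, 9.28, 8.49 and 9.47. Exercise array 301 lay among the low non-exercise arrays, and the other 4 exercise arrays lay above all of them. The log2 change was 0.87 ± 0.33 (SE), with a 95% interval of 0.17 to 1.57, and did not pass (limma adjusted p = 0.0858). It passed without exercise array 301, at 1.21 (limma adjusted p = 0.00163; 0.00163 to 0.811 over 21 settings). With arrays 300 and 301 as the exercise arrays the value was 0.14.

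Ccl3, a ligand of CCR1 made by activated macrophages and lymphocytes, had exercise levels of 10.22, 9.96, 10.98, 11.30 and 10.67. Its non-exercise levels were close together, at 9.47, 9.32, 9.47, 9.21 and 9.24. The groups did not overlap, and arrays 309, 306 and 310 were the 3 highest. Ccl3 rose by 1.28 ± 0.20 on the log2 scale (SE; limma adjusted p = 0.000731), from 9.34 ± 0.12 to 10.62 ± 0.55 (SD, n = 5 each), a fold of 2.43 (95% interval 1.82 to 3.25). In arrays 300 and 301 alone, against the same 5 non-exercise arrays, the change was 0.74 ± 0.11 (limma adjusted p = 0.00124; 9.60e-05 to 0.00869 over 21 settings).

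Ccl4, a chemokine of the MIP-1 group encoded beside Ccl3, had the smallest change of the 10. Its exercise levels were 8.68, 8.53, 8.70, 8.97 and 8.78 and its non-exercise levels 8.50, 8.38, 8.36, 8.58 and 8.39. Only exercise array 301 fell within the range of the non-exercise arrays, below array 330. Ccl4 rose by 0.29 ± 0.09 on the log2 scale (SE; limma adjusted p = 0.0406), a fold of 1.22 (95% interval 1.07 to 1.40), and passed in 9 of 20 other settings. Each single drop of exercise array 300, 306, 309 or 310, or of array 326, 327, 329 or 331 in the other group, ended the call (adjusted p 0.0196 to 0.102 over the 10 drops). In arrays 300 and 301 alone the value was 0.16 (limma adjusted p = 0.382).

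Ccl6, a CCR1 ligand of the C10 and MIP-1 group, had exercise levels of 11.09, 10.91, 10.42, 11.26 and 12.24 and non-exercise levels of 10.02, 10.45, 10.20, 9.33 and 10.50. Exercise array 306 lay below non-exercise arrays 327 and 331, and the other 4 exercise arrays above all. The log2 change of Ccl6 was 1.08 ± 0.28 (SE; limma adjusted p = 0.0166), a fold of 2.12 (95% interval 1.40 to 3.21). It was 0.90 without the 3 arrays with hepatocyte transcripts (limma adjusted p = 0.0247; 0.00534 to 0.0827 over 21 settings).

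Ccl9, the neighbour of Ccl6 and likewise a CCR1 ligand, had exercise levels of 11.58, 11.46, 10.35, 11.65 and 12.59 and non-exercise levels of 10.03, 10.70, 10.37, 9.64 and 10.89. Exercise array 306 lay below 3 non-exercise arrays, and the other 4 exercise arrays lay above all. The log2 change of Ccl9 was 1.20 ± 0.32 (SE; limma adjusted p = 0.0194), a fold of 2.30 (95% interval 1.43 to 3.71). Dropping non-exercise array 326 (1.13, limma adjusted p = 0.0519) or 330 (1.03, limma adjusted p = 0.0561) ended the call, and the adjusted p ran from 0.00175 to 0.0561 over the single drops. The change was also 1.20 without the 3 arrays with hepatocyte transcripts (limma adjusted p = 0.00788).

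Ccr1 had exercise levels of 7.99, 7.60, 7.39, 7.98 and 8.75 and non-exercise levels of 7.02, 7.18, 7.08, 6.54 and 7.18. The groups did not overlap, and non-exercise array 330 lay well below the other 4 of its group. Ccr1 rose by 0.94 ± 0.21 on the log2 scale (SE; limma adjusted p = 0.00701), a fold of 1.92 (95% interval 1.41 to 2.61). It was called in all 19 other settings in which it was tested, and was 0.80 without the 3 arrays with hepatocyte transcripts (limma adjusted p = 0.0106; 0.00273 to 0.0280 over those settings).

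Ccr2, the receptor that defines inflammatory monocytes, had exercise levels of 9.30, 8.50, 8.55, 9.51 and 10.29. Its non-exercise levels were 8.21, 8.78, 8.73, 7.96 and 8.36. Exercise arrays 301 and 306 lay below non-exercise arrays 327 and 329, and the other 3 exercise arrays above all. The log2 change was 0.82 ± 0.28 (SE), with a 95% interval of 0.22 to 1.43, and did not pass (limma adjusted p = 0.0615). It passed in 3 of 20 other settings, with the table as deposited (0.87, limma adjusted p = 0.0412), without exercise array 301 (1.01, limma adjusted p = 0.0157) and without exercise array 306 (0.99, limma adjusted p = 0.0262). The adjusted p reached 0.202 when arrays 306, 309 and 310 were left out, at a value of 0.49.

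**Figure D2:**
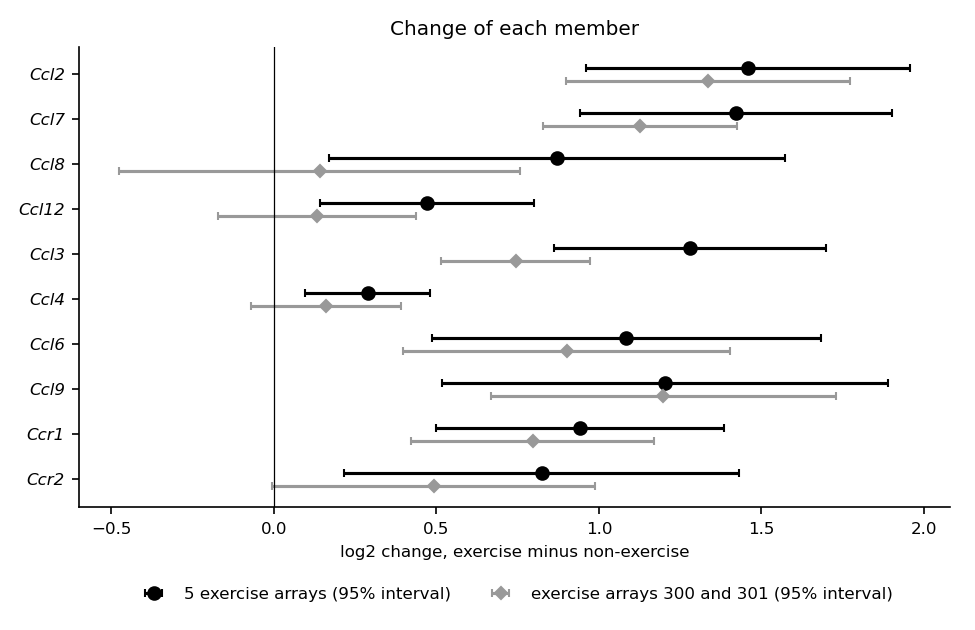
Log2 change of each member, exercise minus non-exercise, with its 95% interval. Black points use 5 exercise arrays and grey points exercise arrays 300 and 301 alone, each against 5 non-exercise arrays; Ccl9 is at 1.20 in both, and Ccl8 moves from 0.87 to 0.14.

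The sizes of the measured changes were compared through the difference of log2 levels within each array. Probe sets can differ in how they respond to concentration, and Ccl12 and Ccr1 were among the dimmest 25% of genes, so these are differences in measured change; signal over background was not analysed here. The 10 pairs set Ccl2 against each other member and Ccr2 against Ccr1. The members were chosen with earlier results of these data known, so the choice of pairs was not blind to them. Ccl2 had the largest change of the members, so every difference from it is positive. In these pairs, 5 differences passed an exact two-sided permutation test over every split of the arrays into 5 and 5 after adjustment over the pairs. The 5 share 1 adjusted p, which the adjustment takes from the largest exact p among them, so they are a joint call near the threshold. The measured change of Ccl2 was larger by 1.17 than that of Ccl4 and by 0.99 than that of Ccl12 (exact p = 0.0159 each, adjusted p = 0.0476). It was larger by 0.64 than that of Ccr2 and by 0.37 than that of Ccl6 (exact p = 0.0238 each, adjusted p = 0.0476). Against Ccr1 the difference was 0.52, with no overlap between the groups (exact p = 0.00794, the smallest this test can give; adjusted p = 0.0476). Ccl2 and Ccl7 differed by 0.038 (exact permutation p = 0.754), with an SD of the within-array difference of 0.19 in each group. The differences of Ccl2 from Ccl9 (0.26, exact permutation p = 0.238), Ccl3 (0.18, exact permutation p = 0.635) and Ccl8 (0.59, exact permutation p = 0.0952) did not pass, nor did that of Ccr2 from Ccr1 (-0.12, exact permutation p = 0.484). Of 14 other settings, the differences from Ccl4 and Ccl12 passed in 4, those from Ccr1 and Ccr2 in 3 and that from Ccl6 in 2. Each count includes the mean of probe sets, which cannot differ from the main result because each member had 1 probe set. Most drops of a single array ended each call, since Ccl4 and Ccl12 passed in 3 of 10 drops, Ccr1 and Ccr2 in 2 and Ccl6 in 1. Over these drops the difference from Ccl4 was 0.99 to 1.35, that from Ccl12 0.87 to 1.17, that from Ccr1 0.45 to 0.59, that from Ccr2 0.47 to 0.76 and that from Ccl6 0.26 to 0.45. On the deposited values, which median centring leaves unaltered within an array, the adjusted p of the 5 was 0.0529 to 0.0635. With 2 exercise arrays the exact p cannot go below 0.0476, so the setting without arrays 306, 309 and 310, 1 of the 14, tells nothing about these calls. The 5 differences there were 1.17 from Ccl4, 1.20 from Ccl12, 0.43 from Ccl6, 0.54 from Ccr1 and 0.84 from Ccr2.

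The members did not all follow the same arrays. Exercise array 310 was the highest of the 10 arrays for 8 members and array 309 for the other 2, Ccl3 and Ccl4, and both arrays were among the top 3 for all 10 members. Non-exercise array 330 was the lowest for 8 members. Exercise array 306 was the lowest exercise array for Ccl2, Ccl7, Ccl6, Ccl9 and Ccr1 but the highest but one for Ccl3. Exercise array 301 was the lowest exercise array for Ccl8, Ccl12, Ccl3, Ccl4 and Ccr2. Over the 10 arrays Ccl3 and Ccl2 had a Pearson correlation of 0.774 and a Spearman correlation of 0.818. Within the groups they differed in which tumours were high. With each group's mean subtracted, their Pearson correlation was 0.074 and that of Ccl7 with Ccl2 was 0.921. The same value was 0.925 for Ccl6, 0.916 for Ccl9, 0.888 for Ccr1, 0.768 for Ccr2, 0.608 for Ccl8, 0.519 for Ccl12 and 0.028 for Ccl4, each with Ccl2. These are descriptions of arrays that share their scaling.

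**Figure D3:**
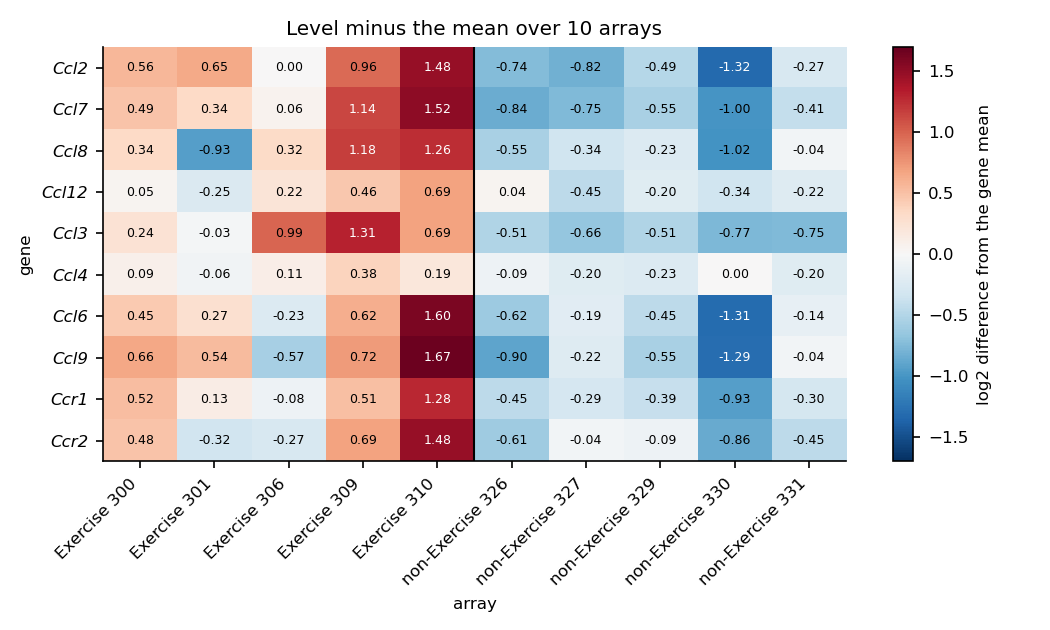
Level of each member minus its mean over the 10 arrays (log2), with the value printed in each cell; red is above and blue below the mean, and the line divides the groups. Exercise array 310 has the highest value in 8 rows and non-exercise array 330 the lowest in 8 rows, while Ccl3 is highest in array 309.

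By pattern over the 10 arrays, the genes most like Ccl2 among all genes tested were Srgn, S100a10, Il1rn, Plec and Ccl7. Srgn, the proteoglycan of secretory granules, had a Pearson correlation of 0.992 and a Spearman correlation of 0.988 with Ccl2, and 0.971 with the group means subtracted. For Il1rn, the interleukin-1 receptor antagonist, these were 0.986, 0.988 and 0.961, and for Ccl7 0.980, 0.976 and 0.921. S100a10, a partner of annexin A2, and Plec, the cytoskeletal linker plectin, both had a Pearson correlation of 0.982. The genes most like Ccr2 were Ptgfrn, C1s1, Ifi27l2a, Tfec and Pcolce2, with Pearson correlations of 0.987, 0.985, 0.984, 0.983 and 0.982. Ifi27l2a, an interferon-induced gene, had a Spearman correlation of 1 with Ccr2, and Tfec, a transcription factor of the myeloid lineage, of 0.952. Among the members Ccr2 was most like Ccr1, at a Pearson correlation of 0.940, and 0.933 with the group means subtracted. The genes were picked as the highest of all, so the values are a description.

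The further genes of the family are given beside the 6.35% of all genes called higher. Of 11 measured further CC ligands 1 was higher and 0 lower, with a median log2 change of 0.21. Ccl11, the eosinophil attractant eotaxin, lies between Ccl7 and Ccl12 and rose by 0.78 ± 0.24 (SE; limma adjusted p = 0.0426). Dropping exercise array 309 or 310, or array 326, 327, 329 or 330 of the other group, ended the call of Ccl11 and left 0 further ligands, while 2 passed with exercise array 301 dropped (adjusted p of Ccl11 0.0140 to 0.112 over the single drops). None passed in arrays 300 and 301 alone, where Ccl11 had a value of 0.31. Ccl5, the T cell and monocyte attractant RANTES, had a value of 0.55 (limma adjusted p = 0.143), Ccl22, a ligand of CCR4, of 0.84 (limma adjusted p = 0.206) and Ccl19, a ligand of CCR7, of 0.21 (limma adjusted p = 0.166). The difference in share between these ligands and the members was not tested.

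Of 11 further CC and atypical receptors 1 was higher and 0 lower, with a median log2 change of 0.11. Ccr7, which guides dendritic and T cells to lymph nodes, rose by 0.91 ± 0.24 (SE; limma adjusted p = 0.0176). The count was 2 without exercise array 300 and 4 without exercise array 301, and was 0 without arrays 306, 309 and 310, where Ccr7 had a value of 0.43. Ackr1, a chemokine-binding decoy of venules and red cells, had a value of 0.70 (limma adjusted p = 0.0640), Ccr8, the receptor for CCL8 in mice, of 0.35 (limma adjusted p = 0.0756) and Ccrl2 of 0.45 (limma adjusted p = 0.0885).

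Of 23 genes that carry chemokine receptor signals 9 were higher and 1 lower, with a median log2 change of 0.13. Pik3r5, a regulatory subunit of the phosphoinositide 3-kinase that G proteins activate, rose by 1.14 ± 0.20 (SE; limma adjusted p = 0.00171). Dock2, a leukocyte activator of Rac, rose by 1.04 ± 0.23 (limma adjusted p = 0.00750), Rgs1, which switches G protein signals off, by 0.85 ± 0.18 (limma adjusted p = 0.00616), and Arrb2, the receptor-binding arrestin, by 0.69 ± 0.11 (limma adjusted p = 0.000764). The lower gene was Rac1, the ubiquitous GTPase, at -0.14 (named after its value was seen), and its call ended when exercise array 301 or array 326, 327, 329 or 330 of the other group was dropped, while 2 genes were lower with array 331 dropped. Without arrays 306, 309 and 310 the counts were 3 higher and 0 lower, and Dock2 had a value of 0.62 that did not pass (limma adjusted p = 0.0874; 0.000106 to 0.0874 over its settings).

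Of 16 measured cytokines and factors that induce monocyte chemokines 5 were higher and 1 lower, with a median log2 change of 0.22. Csf1, the growth factor of monocytes and macrophages, rose by 0.85 ± 0.10 (SE; limma adjusted p = 0.000218), Il1b, interleukin-1 beta, by 0.97 ± 0.21 (limma adjusted p = 0.00571) and Myd88, the adaptor of interleukin-1 and Toll-like receptors, by 0.49 ± 0.12 (limma adjusted p = 0.0108). Rela, the p65 subunit of NF-kB, was the lower gene, at -0.45 ± 0.05 (limma adjusted p = 0.000157). Tnf and Il6, named after their values were seen, were the other higher genes, at 0.78 and 0.37. Il6 was dimmer than Ccl12 in non-exercise arrays, with means of 6.04 and 7.11, and signal over background was not analysed here. The higher genes numbered 3 when exercise array 306 or 310 or array 327, 330 or 331 of the other group was dropped, as they did without arrays 306, 309 and 310, where Myd88 (0.25) and Tnf (0.17, limma adjusted p = 0.509) did not pass and Il6 was at 0.61 (limma adjusted p = 0.00758).

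Markers of monocytes and macrophages were counted beside the chemokines, and whether they followed the chemokines over the arrays was not tested. Of 10 measured genes of inflammatory monocytes 8 were higher and 0 lower, and 7 were higher without arrays 306, 309 and 310. Their mean centred level was -0.12 to 1.03 in exercise arrays and -0.79 to -0.18 in non-exercise arrays, and array 306 was the lowest exercise array. Fcgr1, the high-affinity IgG receptor, rose by 1.25 ± 0.25 (SE; limma adjusted p = 0.00454) and Lyz2, lysozyme of myeloid cells, by 0.82 ± 0.20 (limma adjusted p = 0.0131). Itga4, also among the 3 brightest genes of the list, had a value of -0.08 and did not pass (limma adjusted p = 0.755). The defining monocyte gene Ly6c2 was not analysed here. Of 13 macrophage genes 8 were higher and 1 lower: Cd68 rose by 0.76 ± 0.15 (limma adjusted p = 0.00315) and the complement gene C1qb by 1.03 ± 0.20 (limma adjusted p = 0.00401), while Apoe, also abundant in pigment cells, changed by -0.31 ± 0.06 (limma adjusted p = 0.00339). The macrophage genes called higher numbered 5 when exercise array 309 or 310 or array 330 was dropped and 3 without arrays 306, 309 and 310, where C1qb (0.53) did not pass. The macrophage level was -0.32 to 0.71 in exercise arrays, lowest in array 301, and -0.56 to -0.14 in non-exercise arrays. The part of these cells in the chemokine levels was not tested.

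Markers of other cells that make or answer these chemokines were also counted, and no test compared the lists. Of 11 neutrophil genes 3 were higher and 0 lower, with a mean centred level of -0.15 to 0.40 against -0.26 to 0.00, and without arrays 306, 309 and 310 the higher genes numbered 5. Mmp9, the gelatinase of neutrophils and macrophages, rose by 0.79 ± 0.16 (SE; limma adjusted p = 0.00463), and the other higher genes were Csf3r and Mmp8 at 0.72 and 0.44 (named after their values were seen). Camp, of neutrophil granules, and Retnlg had values of 0.05 and -0.06 and did not pass. Ltf, named after its value was seen, had the largest fall of the list, at -0.55, and did not pass (limma adjusted p = 0.0562). Without arrays 306, 309 and 310 Ltf was at -0.71 and did not pass (limma adjusted p = 0.0672). The lower neutrophil genes numbered 1 when exercise array 310 or non-exercise array 326 or 330 was dropped. Of 6 fibroblast genes 4 were higher, 2 without non-exercise array 326 or 330 and 2 without the 3 exercise arrays, with levels of -0.21 to 1.08 against -0.86 to -0.04. Col1a2, a collagen chain, rose by 1.04 ± 0.21 (limma adjusted p = 0.00436). Of 7 genes each of patrolling monocytes, dendritic cells, and eosinophils and mast cells 1 was higher: Fcgr4, an IgG receptor, at 1.49, Flt3 at 0.52 and Mcpt4 at 0.76 (the latter pair named after their values were seen). Without arrays 306, 309 and 310 all 3 counts were 0, with Fcgr4 at 0.58, Flt3 at 0.24 and Mcpt4 at 0.37. The patrolling monocyte count was 3 when exercise array 301 or 306 was dropped. The dendritic cell count was 4 with exercise array 301 dropped and 0 with array 309, 326, 327 or 330 dropped. The eosinophil and mast cell count was 2 with exercise array 300, 301 or 310 dropped and 0 with array 309, 326, 327, 330 or 331 dropped. By limma 0 of 5 endothelial genes and 0 of 9 T, B and NK cell genes passed (1 and 4 had an unadjusted p under 0.05). The part of these cells in the chemokine levels was not tested either.

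**Figure D4:**
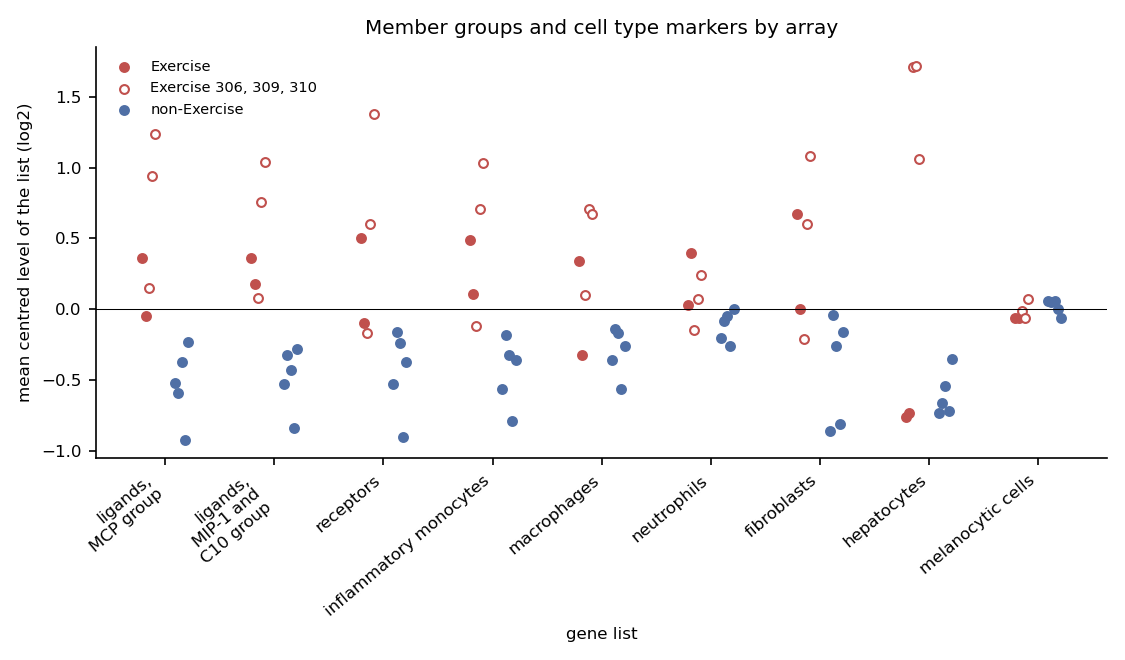
Mean centred level (log2) of the member groups and of marker lists in each array, with exercise arrays in red (open circles are arrays 306, 309 and 310) and non-exercise arrays in blue. The inflammatory monocyte list runs from -0.12 to 1.03 in exercise and from -0.79 to -0.18 in non-exercise arrays, and hepatocyte genes are high only in the 3 open circles.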

How the data were processed

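RNA of 10 tumours was hybridised to Affymetrix whole-transcript arrays, 1 per tumour. RNA came from either of 2 RNeasy kits and was amplified and biotin-labelled, per the labels' protocols, which do not say which tumour had which kit. Per the submitters' processing notes the authors summarised probe sets with PLIER (version not stated). The deposited values lie between 4.66 and 14.55 and were taken as log2; the log base, any added constant and scan batches were not stated there. Array medians differed by 0.126, so arrays were quantile normalized with limma 3.58.1 (R 4.3.3). Probe sets with 1 platform symbol (21789) gave 19938 genes, the brightest probe set standing for each; no dim genes were left out. lmFit and eBayes with an intensity trend compared the groups, two-sided, with Benjamini-Hochberg adjustment over all genes. No 2 arrays shared over 1 value, and pairs within a group correlated at 0.976 to 0.996. The number of arrays limits precision, and p-values reflect only the spread among the 10 tumours, which may be technical. A mean centred level is the mean over a list of each gene's level minus its mean over 10 arrays.

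Named genes were drawn from the 10 members, the 4 smallest p of each pathway list, the 3 highest levels of marker lists and the 5 genes most like Ccl2 and Ccr2 (predicted genes and clones passed over). Not every marker gene so drawn is given, and genes named after their values were seen lie outside this rule. Among those left out were Nr4a1 and Kit, at -0.13 and -0.35, which did not pass, and Col1a1 and Dcn, at 0.99 and 1.16, which did. Members and lists were chosen with earlier results of these data known. Alternatives were no scaling, median centring, leaving out dim genes, probe set rules, variance models, a threshold of 0.01 and leaving out arrays; leaving out arrays 306, 309 and 310 together was chosen after seeing the data. Figures used Python 3.11.15 and matplotlib 3.10.9.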

Additional observations from a re-analysis of the deposited data

Results flagged for a closer look

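In 3 of 52 groups of 5 arrays looked at (10 members and 16 pathway genes, each in both groups), 1 array stood apart by a Dixon test, which chance alone gives in about 1 in 20 groups. Ccr1 was at 6.54 in non-exercise array 330 against 7.02 to 7.18 in the other 4 arrays. Rgs1 was at 7.38 in the same array against 7.89 to 8.04. Ccl22 was at 10.82 in exercise array 310 against 8.07 to 8.68.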

How the results depend on the processing

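No member was called lower under any setting tried. Ccl2, Ccl7 and Ccl3 passed in all 21 other settings and Ccr1 in all 19 that tested it. Among these settings, the probe set rules and the leaving out of dim genes kept the members' changes as they were and altered only the adjusted p. Leaving out 1 array gave 6 to 10 members, 857 to 1528 genes higher and 1435 to 2333 genes lower, against 8, 1266 and 2118. Without the dimmer 50% of genes 6 members were left and 5 were called. At an adjusted p under 0.01 the counts were 4 members, 531 genes higher and 1006 genes lower. Without exercise arrays 306, 309 and 310, 746 genes were higher. Of the calls 37.4% were higher, and 23.4% after median centring, which called 8 members. Ccl6 and Ccl9 were not called with robust variances. The difference between Ccl2 and Ccl7 turned to -0.035 without exercise array 301 and to -0.037 without non-exercise array 330, and ranged from -0.037 to 0.089 leaving out 1 array. The causes were not tested. Signal over background was not analysed here; Ccl12 and Ccr1 were among the dimmest 25% of genes. No paired analysis was possible because the groups share no replicate number.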
